A study of Mus musculus with 14 samples.

Results

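Monocyte progenitors and neutrophil progenitors of day 17 were compared within the same 3 mice. Members were single cells chosen by their own counts. A kept cell (at least 500 genes and 10000 counts) was monocyte-gated when at least 3 of LY86, IRF8, CSF1R, F13A1, CCR2, MS4A6C and FN1 had more than 10 counts and at most 1 of CEBPE, FCNB, S100A8 and TREM3 did. It was neutrophil-gated when at least 2 of the latter 4 genes and at most 2 of the former 7 had more than 10 counts. The gates held 77 and 40 cells, 117 of the 620 kept day 17 cells of these mice and of 1010 kept cells in the series. The gates use measured values, so the 11 gate genes are described without a test, and other genes were tested in cells already sorted by them.

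The study followed the output of blood stem cells in mice with an inducible lineage label. Lineage-negative cells (Lin-) carrying the Tomato label (Tom+) were sorted singly into wells 3, 10 or 17 days later, and the 3′ ends of polyadenylated RNA were sequenced with a modified Smart-seq2 protocol. All cells compared here, monocyte-gated or neutrophil-gated, were Lin- Tom+ cells of day 17 from mouse m4528 (4 plates), m605 (2 plates) or m606 (2 plates), so both classes shared label, gate and time. A further plate with cells of m605 and m606 together was left out of the first fit and of the thinned fit. The labels used here give neither the promoter of the label nor genotype, age or dose. Values listed as 3 numbers are in the order m4528, m605, m606.

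Monocytes and neutrophils arise in the marrow from shared granulocyte-monocyte progenitors that express CD34 and myeloperoxidase. IRF8 and KLF4 are known regulators of the monocyte branch, and CEBPE and GFI1 of the neutrophil branch. Neutrophil precursors first fill primary (azurophil) granules with MPO, elastase, proteinase 3 and cathepsin G, and later make secondary and tertiary granule proteins such as CAMP, NGP, LTF and LCN2. Monocyte progenitors gain lysosomal proteases, Fc receptor adaptors and the growth factor receptor CSF1R.

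The monocyte gate took 10.4% (exact 95% binomial interval 7.14 to 14.5), 13.99% (8.76 to 20.8) and 14.3% (9.63 to 20.1) of kept cells, or 30, 20 and 27 cells. The neutrophil gate took 7.29% (4.57 to 10.9), 6.29% (2.92 to 11.6) and 5.29% (2.57 to 9.51), or 21, 9 and 10 cells. Intervals cover counting error only. The mean shares over mice were 12.9% ± 2.15 and 6.29% ± 1.0003 (SD, n = 3). Among the gated cells, 10 monocyte-gated cells had exactly 3 of their genes, and 16 cells with 2 lay just outside. Of the neutrophil-gated cells, 13 had 2, 7 had 3 and 20 had all 4 genes, and 58 cells with 1 lay just outside. Another 24 cells met the positive side of both gates and entered neither class.

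**Figure D1:**
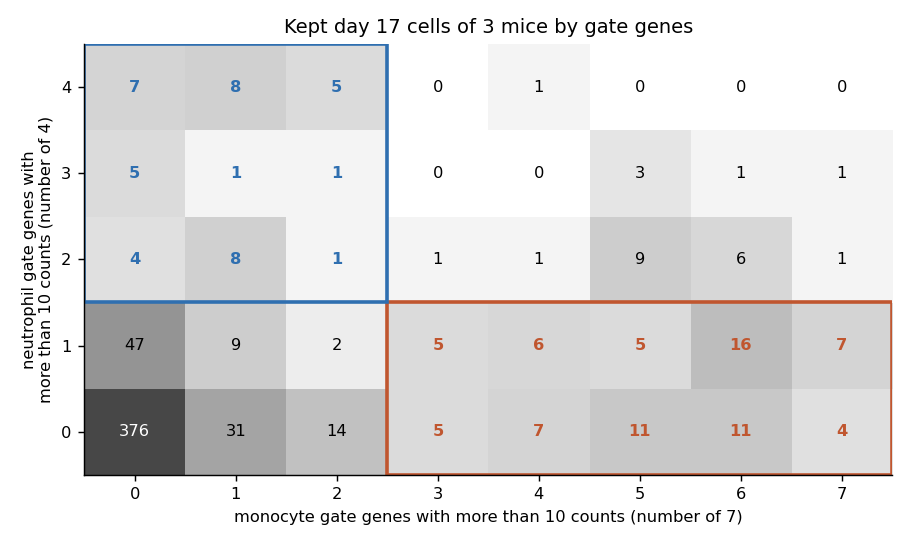
Number of kept day 17 cells of the 3 mice by how many of the 7 monocyte gate genes (horizontal axis) and 4 neutrophil gate genes (vertical axis) had more than 10 counts; the orange box is the monocyte gate (77 cells) and the blue box the neutrophil gate (40 cells). The 376 cells with none of either list sit at the lower left, and the 24 cells of the upper right fall in neither gate.

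The gate genes are given as a description of what the rule chose, and do not check the names of the classes. LY86, a protein that pairs with the RP105 receptor, had more than 10 counts in 74 of 77 monocyte-gated and 1 of 40 neutrophil-gated cells. IRF8 did in 69 and 0, and CCR2, the receptor that draws monocytes out of marrow, in 51 and 1. The neutrophil factor CEBPE did in 3 and 37, FCNB in 3 and 23 and S100A8 in 8 and 29. TREM3 was the least exclusive of the neutrophil gate genes, with more than 10 counts in 25 monocyte-gated and 38 neutrophil-gated cells. In CPM (summed counts scaled to the same total), IRF8 was at 1097, 599 and 968 in monocyte-gated cells and 5.61, 3.19 and 7.77 in neutrophil-gated cells. CEBPE was at 7.5, 3.54 and 7.25 and 225, 127 and 159. Outside the gate, genes of more mature cells were uneven. VCAN was under 1 CPM in all 6 sums but at 13.2 CPM in monocyte-gated cells of the plate of 2 mice, and MMP9 was listed in 1 sum only, at 0.104 CPM. ADGRE1, the F4/80 antigen of macrophages, was at 50.8, 0 and 4.09 CPM in monocyte-gated cells and at 0 in neutrophil-gated cells. NGP was at 561 CPM and LTF at 99.6 CPM in the neutrophil-gated sum of m4528, and both were under 1 CPM in the neutrophil-gated sums of m605 and m606.

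Depth differed between the classes. The median neutrophil-gated cell held 429647, 277810 and 239016 counts, against 303020, 141993 and 194581 for the monocyte-gated cell, deeper in every mouse. The sums held 9097820, 4073114 and 2572840 counts for neutrophil-gated and 9594417, 3958020 and 5375910 for monocyte-gated cells. A gate set in counts takes deep cells more readily. A gate of more than 50 CPM, added after seeing the data, kept all 30, 20 and 27 monocyte-gated cells and 20, 8 and 9 of the neutrophil-gated cells.

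One cell stood apart and bears on every result of m605. The deepest gated cell, neutrophil-gated in m605, held 1847709 counts, 45.4% of that sum. It passed on 17 counts of S100A8 and 11 of TREM3, and held 4185 counts of the erythroid gene CAR1, 4246 of CAR2, 1591 of KLF1 and 401 of GATA1, against 253 of MPO and 210 of ELANE. The erythroid list of 10 genes summed to 3485 CPM in the neutrophil-gated sum of m605 and to between 332.5 and 1173 CPM in the other 5 sums. CAR1 itself was at 111, 1077 and 58.7 CPM in neutrophil-gated cells, and at 89.9 CPM in m605 without that cell. Levels and overlaps between classes include this cell, as the rule sets, unless said otherwise. Some fits and levels are also given without it. Without it the m605 neutrophil-gated level of ITGB7 was 3.15 CPM instead of 28, and that of CFP 88.5 instead of 50.1. FFAR2 was at 245 instead of 134, CPA3 at 488.5 instead of 268 and WFDC21 at 425 instead of 232 CPM. Thinning every gated cell to 10000 counts before summing also removes the weight of deep cells and the depth gap, since each cell then counts equally. The gates themselves still used the unthinned counts, and the part of depth in the choice of cells was not tested. Markers of erythroid cells exceeded the primary granule genes in 2 monocyte-gated cells and 1 neutrophil-gated cell.

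The 250 bases upstream of a transcript start are printed for CTSS (monocyte-higher) and for CD63, MS4A3 and ELANE (neutrophil-higher on thinned cells). These genes were picked with their values known. Only CTSS had an adjusted p under 0.05 (edgeR) in the first fit described below. The bases run 5′ to 3′ along each gene and come from the RefSeq table of GRCm38.p6, which gives 1 start a gene. For CD63 that start lies within the span annotated for the gene, downstream of its first base. Their regions are chr3:95526536-95526785 (plus strand), chr10:128909095-128909344 (plus), chr19:11640852-11641101 (minus) and chr10:79886062-79886311 (plus). Capitals mark matches, on either strand, to 3 motifs of myeloid factors: TTGCNNAA for C/EBP, GAGGAAGT for PU.1 and for IRF factors GAAA repeated after a gap of any 2 bases.
CTSS: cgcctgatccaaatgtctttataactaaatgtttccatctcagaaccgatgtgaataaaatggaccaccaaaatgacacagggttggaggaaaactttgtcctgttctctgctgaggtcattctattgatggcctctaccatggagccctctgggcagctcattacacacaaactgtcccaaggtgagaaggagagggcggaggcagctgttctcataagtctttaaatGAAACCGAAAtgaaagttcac
CD63: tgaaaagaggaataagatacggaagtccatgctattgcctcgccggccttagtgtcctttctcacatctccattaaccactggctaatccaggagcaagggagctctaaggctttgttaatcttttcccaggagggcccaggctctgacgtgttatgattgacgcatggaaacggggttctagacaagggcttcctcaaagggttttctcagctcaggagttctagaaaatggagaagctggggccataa
MS4A3: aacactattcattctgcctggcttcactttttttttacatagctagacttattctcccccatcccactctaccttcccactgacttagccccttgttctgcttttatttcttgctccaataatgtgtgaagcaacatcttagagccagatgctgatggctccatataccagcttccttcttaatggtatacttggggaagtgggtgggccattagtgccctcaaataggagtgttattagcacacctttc
ELANE: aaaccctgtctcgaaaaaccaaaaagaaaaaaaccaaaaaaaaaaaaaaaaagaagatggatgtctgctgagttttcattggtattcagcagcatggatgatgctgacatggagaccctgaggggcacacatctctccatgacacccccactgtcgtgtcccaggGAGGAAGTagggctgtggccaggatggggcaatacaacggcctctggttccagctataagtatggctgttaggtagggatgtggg
The CTSS window held 1 IRF match on its own strand, from 21 to 12 bases before that start, and the ELANE window 1 PU.1 match on its own strand, from 85 to 78 bases before it. No match overlapped another, and the CD63 and MS4A3 windows held none of these letters. Among 32851 RefSeq promoter windows of the same length, 9.56% held the C/EBP motif, 2.44% the PU.1 motif and 2.98% the IRF motif. A match is a description of letters, not a binding site.

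The contrast was tested with edgeR's quasi-likelihood test on counts summed per mouse and class, with the mouse as a block and Benjamini-Hochberg adjustment over 10755 genes. P-values set each difference against the spread between these 3 mice, with each gene's variance drawn towards that of other genes. The prior degrees of freedom were 2.85 in the first fit. Small p-values, also on thinned cells, thus lean partly on variance shared across genes and not on these mice alone. At an adjusted p under 0.05, 2 genes (0.0186%) were higher in monocyte-gated cells and 0 (0.0%) in neutrophil-gated cells. At an unadjusted p under 0.05 the counts were 563 (5.23%) and 370 (3.44%), together 8.68%, and DESeq2's Wald test on the same sums called 366 (3.4%) and 215 (2.0%), together 5.4%. Of 16 alternative settings, 3 of them added after seeing the data, leaving out the deepest cell gave 11 and 4, and leaving out the deepest cell of each class and mouse 4 and 4. With every cell thinned to 10000 counts edgeR called 187 of 4151 genes (4.5%) as monocyte-higher and 78 (1.88%) as neutrophil-higher, together 6.38%. The 3 mice did not overlap between classes for 670 genes (6.23%) higher in monocyte-gated and 570 (5.3%) higher in neutrophil-gated cells. All 15 genes called without the deepest cell were also called, with the same sign, on thinned cells. The self-test on simulated counts of the first fit recovered 12% of genes changed 4-fold and 48% of those changed 16-fold, and a missed threshold does not show equality. Outside the gate, no gene named below other than CTSS and IGHM passed the threshold in the first fit, and results on thinned cells are said to be so. Genes named for the thinned fit were chosen after their values were seen.

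**Figure D2:**
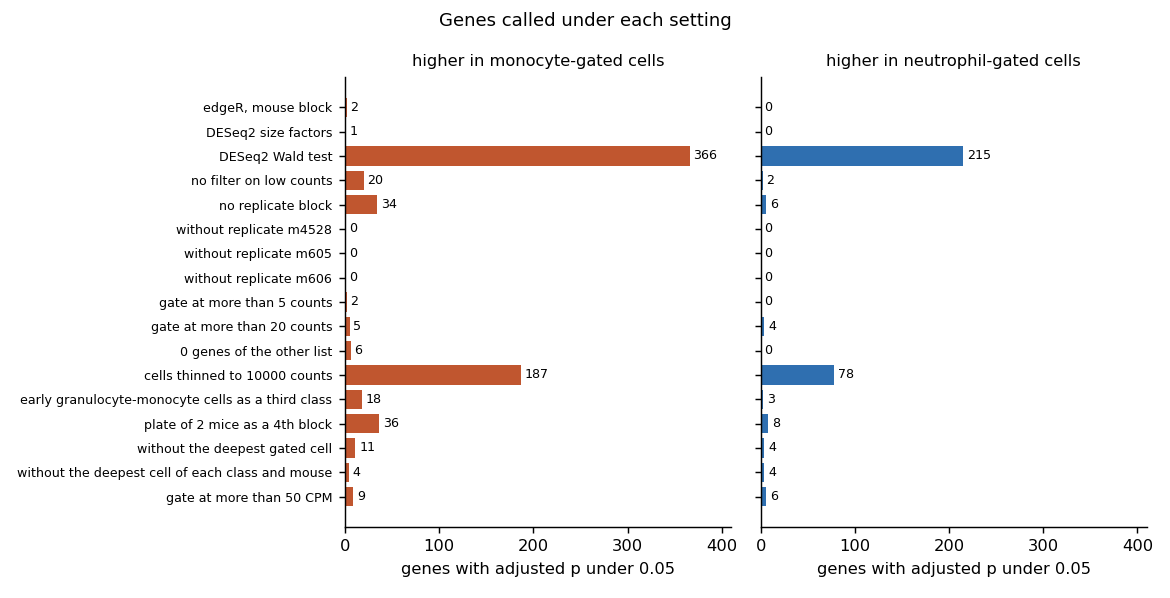
Genes with an adjusted p under 0.05 (bar length, axis from 0) in each direction under the first fit (edgeR, mouse block) and every alternative setting. Counts run from 0 when a mouse is left out to 366 and 215 under DESeq2's Wald test, with 187 and 78 on thinned cells.

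CTSS and IGHM passed the threshold in the first fit. CTSS, the lysosomal protease cathepsin S that trims the class II invariant chain (GRCm38.p6 chromosome 3, 95526786 to 95556405), was at 629, 309 and 453 CPM in monocyte-gated and 3.3, 2.21 and 1.94 CPM in neutrophil-gated cells. No neutrophil-gated sum came near a monocyte-gated one. The log2 fold change was 7.54 ± 0.30 (SE, adjusted p = 0.0267, edgeR), higher in 3 of 3 mice. CTSS had more than 10 counts in 61 of 77 monocyte-gated cells and in 0 of 40 neutrophil-gated cells. IGHM, the constant region of the immunoglobulin M heavy chain (chromosome 12, 113418826 to 113422730), was at 1271, 852 and 951 CPM against 83.2, 45.2 and 64.5 CPM. Its groups did not overlap either, with a log2 fold change of 4.06 ± 0.21 (SE, adjusted p = 0.0477, edgeR). More than 10 counts of IGHM were found in 71 of 77 monocyte-gated and 11 of 40 neutrophil-gated cells. Both calls held without the deepest cell (adjusted p = 0.0136 and 0.0187, edgeR), and neither held when any single mouse was left out. Fits with a mouse left out called 0 genes in either direction, so that loss is not particular to these 2 genes. In those fits the log2 fold change stayed between 7.47 and 7.68 for CTSS and between 3.93 and 4.19 for IGHM. CTSS kept its call in the other 12 settings. IGHM lost it in 4 of them, with an adjusted p (edgeR) of 0.0505 with DESeq2's size factors, 0.078 with the gate at more than 5 counts, 0.132 with 0 genes of the other list and 0.124 with the early cells as a further class.

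Genes outside the lists, chosen after their values were seen, are given next. TPM4, a tropomyosin, was at 183, 89.9 and 110.1 against 0.44, 0.246 and 0.777 CPM (log2 7.94 without the deepest cell, adjusted p = 0.0493, edgeR). UPB1, an enzyme of pyrimidine breakdown, was at 117, 109.9 and 89.8 against 1.1, 0.491 and 0.389 CPM (log2 7.04, adjusted p = 0.0493, edgeR). LGALS1, galectin-1, was at 1578, 5144 and 4495 against 384, 965 and 879.6 CPM, and CST3, cystatin C, an inhibitor of cathepsins, at 2074, 3329.9 and 3359.6 against 828.88, 1094 and 1307 CPM. None of these 4 genes overlapped between classes. AIF1, a calcium-binding protein of monocytes and macrophages, was at 119.7, 355 and 51.9 against 1.21, 2.21 and 0 CPM, with m605 the highest. The receptor tyrosine kinase MET was at 93.2, 102 and 39.4 against 0.22, 0.491 and 0 CPM. The complement regulator CFP, properdin, was at 476, 372 and 239.6 against 14, 50.1 and 11.3 CPM. In the other direction FFAR2, a receptor of short-chain fatty acids, was at 0, 0.505 and 13.2 against 71, 134 and 80.1 CPM. AIF1, MET, CFP and FFAR2 passed the threshold on thinned cells (adjusted p = 9.53e-06, 0.000243, 1.76e-07 and 0.00319, edgeR).

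**Figure D3:**
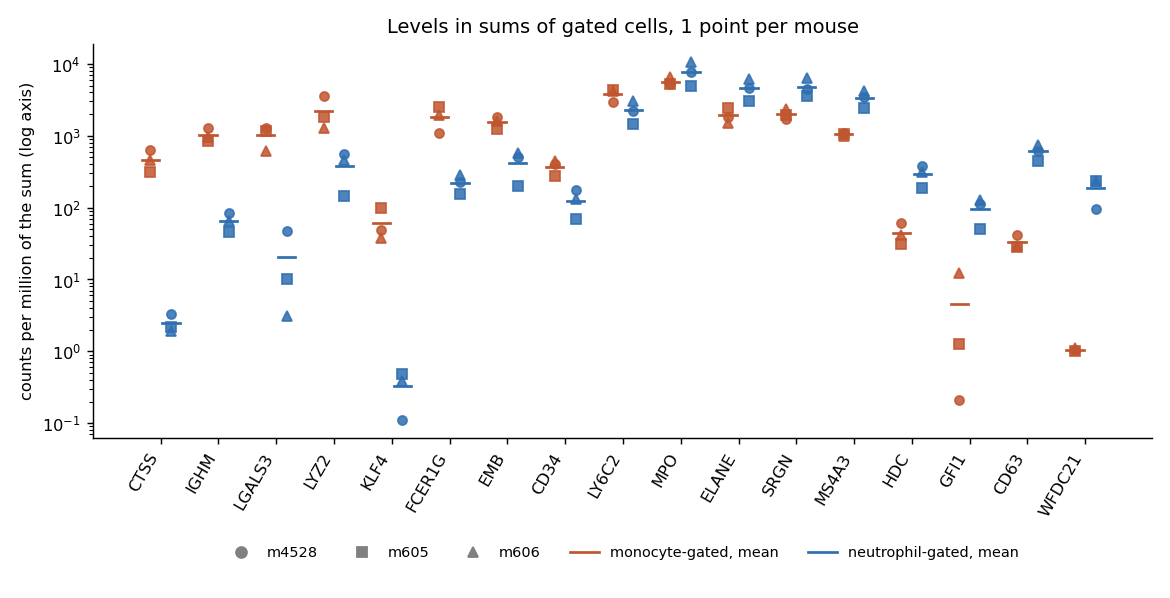
CPM (log axis) of 17 genes in the sum of gated cells of each mouse (circle m4528, square m605, triangle m606), monocyte-gated in orange and neutrophil-gated in blue, with a bar at the mean of 3 mice. CTSS, IGHM, LGALS3 and KLF4 separate upwards in monocyte-gated cells and CD63 and WFDC21 in neutrophil-gated cells, while MPO and LY6C2 overlap.

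Monocyte markers outside the gate were mostly higher in monocyte-gated cells. Of 32 listed genes, 25 had enough counts to test, and 24 of these had a positive fold change, with a median log2 of 4.32 beside 0.01 over all 10755 genes. In 19 of the 25 the 3 monocyte-gated sums lay above the 3 neutrophil-gated ones, beside 6.23% of all genes tested (670). On thinned cells 13 of 16 tested members were monocyte-higher and 1, CLEC12A, neutrophil-higher (beside 4.5% and 1.88% of all genes in that fit). The low-count filter passes a gene through the class where it is high, so these counts describe the list only.

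KLF4, a zinc finger factor of the monocyte branch, was at 48.4, 98.3 and 37.8 CPM against 0.11, 0.491 and 0.389 CPM, with no overlap. Its log2 fold change was 7.67 ± 0.83 (adjusted p = 0.138, edgeR) in the first fit and 7.26 ± 1.26 (adjusted p = 0.00058, edgeR) on thinned cells. KLF4 was nonetheless found in a minority of cells, with more than 10 counts in 21 of 77. LGALS3, galectin-3, was at 1296, 1147 and 614 CPM against 47.6, 10.1 and 3.11 CPM and rose on thinned cells by 5.18 ± 0.29 (adjusted p = 4.55e-11, edgeR; first fit, adjusted p = 0.138). MS4A4C, a membrane protein of the MS4A family, was at 232, 267 and 253 CPM against 1.65, 1.23 and 19.8 CPM. PLD4, an endolysosomal exonuclease, was at 645, 327 and 349 CPM against 12, 44.4 and 18.7 CPM, also without overlap. EMB, embigin, stood at 1839, 1245 and 1602 CPM against 502, 199 and 571 CPM. EMB passed the threshold without the deepest cell (log2 1.76, adjusted p = 0.0493, edgeR).

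Some listed markers were abundant in both classes. LY6C2, which encodes a chain of the Ly6C antigen used to sort monocytes, was at 2962, 4287 and 4214 CPM in monocyte-gated and 2211, 1466 and 3089 CPM in neutrophil-gated cells, with overlap. Its log2 difference on thinned cells was 0.82 ± 0.13 (adjusted p = 0.000243, edgeR; first fit, adjusted p = 0.526), and reads of the near-identical copy LY6C1 may be shared with it. The C-type lectin CLEC12A ran the other way, at 872, 617 and 1019 against 1485, 1006 and 1571 CPM. The chemokine CCL9 was at 721, 591 and 711 against 545, 311 and 493.23 CPM and passed no threshold. The fractalkine receptor CX3CR1, a later monocyte gene, was at 35.2, 24.5 and 96.5 CPM against 0, 8.1 and 0 CPM.

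Lysosomal genes leaned to the monocyte-gated cells. Of 36 tested genes of the list of 38, 27 had a positive fold change (median log2 0.86), and on thinned cells 11 of 29 were monocyte-higher and 1, CD63, neutrophil-higher (beside 4.5% and 1.88% of all genes in that fit). CTSH, cathepsin H, was at 553, 269.8 and 319 against 41.5, 1.47 and 15.5 CPM. CTSZ was at 1107, 880.5 and 818 against 604.98, 333 and 592 CPM. NPC2, which moves cholesterol out of lysosomes, was at 2393, 1857 and 1747 against 1044, 1015 and 915 CPM. These 3 genes had log2 changes of 4.48, 1.10 and 1.07 on thinned cells (adjusted p = 1.76e-07, 0.00052 and 0.000147, edgeR), against adjusted p = 0.208, 0.357 and 0.159 in the first fit, and no sum of one class overlapped the other for any of them. Cathepsin S, above, belongs to the same list.

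The list of antigen presentation genes had only CTSS in common with the lysosomal list. Of 14 tested genes of 20, 13 had a positive fold change (median log2 1.25), and 5 of 9 were monocyte-higher on thinned cells, beside 4.5% of all genes: B2M, H2-DMA, H2-DMB1, IFI30 and CTSS. H2-DMA, a subunit of the peptide-loading factor for class II, was at 709, 581 and 747 against 274, 171 and 386 CPM. IFI30, a lysosomal thiol reductase, was at 376, 443 and 297 against 11, 119 and 50.9 CPM, and at 4.94 CPM in m605 neutrophil-gated cells without the deepest cell. B2M, the light chain of class I, differed less, at 2741, 4480.3 and 5193 against 2413, 2601 and 4032 CPM with overlap. Classical class II genes were low and uneven: H2-AA had more than 10 counts in 4 of 77 monocyte-gated cells and 1 of 40 neutrophil-gated cells. H2 genes share reads with related copies and are uncertain for that reason.

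Innate receptors were called in both directions. FCER1G and TYROBP are the signalling adaptors of Fc and activating receptors. FCER1G was at 1091, 2503 and 1913 against 224, 154 and 285 CPM. TYROBP was at 689.6, 1799 and 1403 against 252, 171 and 586 CPM. Both separated the mice without overlap and rose on thinned cells, by 2.85 ± 0.24 and 1.95 ± 0.19 log2 units (adjusted p = 2.6e-08 and 1.22e-07, edgeR). In the first fit the adjusted p (edgeR) was 0.171 and 0.34. In the innate sensing list as a whole, 29 of 43 genes were tested, 20 with a positive and 9 with a negative fold change (median log2 0.76), and on thinned cells 3 of 12 were monocyte-higher and 2, CLEC12A and CLEC4A2, neutrophil-higher (beside 4.5% and 1.88% of all genes in that fit). CLEC4A2 was at 59.1, 33.6 and 8 against 198, 125 and 266 CPM.

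Among adhesion receptors, 3 of 6 genes tested on thinned cells were monocyte-higher and none neutrophil-higher (beside 4.5% and 1.88% of all genes in that fit). SELPLG, the selectin ligand PSGL-1, was at 739.7, 520.0 and 579 against 103, 101 and 148 CPM. ITGB7, an integrin chain, was at 131, 171 and 197 against 2.86, 28 and 15.9 CPM, and neither gene overlapped between classes. Among cytokine receptors 3 of 7 were monocyte-higher on thinned cells, beside the same 4.5%: FLT3, IFNAR2 and IL6RA. IL6RA, the interleukin-6 receptor, was at 118, 164 and 84.6 against 25.2, 12.8 and 8.94 CPM, and IFNAR2, a chain of the type I interferon receptor, at 237, 165 and 243 against 115, 28 and 107 CPM. The 8 genes of the NADPH oxidase gave a median log2 of 0.26, with 1 of 8, CYBB, monocyte-higher on thinned cells, again beside 4.5%. CYBB, the catalytic chain, was at 285, 147 and 96.7 against 128, 2.7 and 26.4 CPM and overlapped. The small GTPase RAC2 stood at 2005, 1441 and 1621 against 2046, 719.6 and 1803 CPM, NCF4 at 579, 207 and 366 against 479, 201 and 378 CPM and CYBA at 339, 805 and 369 against 278, 483 and 335 CPM, none past the threshold.

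Primary granule genes leaned to the neutrophil-gated cells and were abundant in both classes. All 14 genes found in the tables were tested, 12 with a negative fold change (median log2 -1.15). The first fit called none of them. On thinned cells 12 were neutrophil-higher and 2, LYZ2 and CTSC, monocyte-higher, beside 1.88% and 4.5% of all genes. MPO, myeloperoxidase, was at 5328, 5249 and 6476 CPM in monocyte-gated and 7688, 4999 and 10652 CPM in neutrophil-gated cells. Its ranges overlapped, with a log2 fold change of -0.35 ± 0.21 (adjusted p = 0.734, edgeR) that became -0.86 ± 0.09 on thinned cells (adjusted p = 9.3e-07, edgeR). Without the deepest cell the m605 neutrophil-gated level of MPO was 9037 CPM. ELANE, neutrophil elastase, was at 1817, 2456 and 1504 against 4612, 3039.9 and 6107 CPM, CTSG, cathepsin G, at 2087, 3074 and 2776 against 4011, 3538 and 6656 CPM and PRTN3, proteinase 3, at 1822, 2310.2 and 2168 against 3083, 2004 and 4012 CPM. With the deepest cell included, ELANE and CTSG did not overlap between classes, and PRTN3 did.

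MS4A3, a membrane protein of granulocyte-monocyte progenitors (chromosome 19, 11629499 to 11640851), was tested with this list. It was at 1089, 1073 and 1000.4 CPM against 3495, 2452 and 4231 CPM. The monocyte-gated sums lay within a narrow band, and every neutrophil-gated sum was above it. Its log2 fold change was -1.61 ± 0.23 (adjusted p = 0.176, edgeR), -1.90 without the deepest cell (adjusted p = 0.0292, edgeR) and -2.13 ± 0.14 on thinned cells (adjusted p = 2.66e-10, edgeR). SRGN, the proteoglycan core that packs granule proteases, was at 1708, 1933 and 2385 against 4539.11, 3608 and 6343 CPM and was also called without the deepest cell (adjusted p = 0.0292, edgeR). NKG7, a granule membrane protein, was at 567, 1453 and 559 against 3065, 2097 and 3648 CPM, the serine protease PRSS57 at 355, 244 and 194 against 1207, 536 and 1087 CPM, and the protease inhibitor SERPINB1A at 608, 394 and 593 against 1907, 866 and 1549 CPM. All 3 separated the classes in every mouse.

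Lysozyme ran against its list. LYZ2 was at 3566, 1814 and 1288 CPM in monocyte-gated and 549, 147 and 458 CPM in neutrophil-gated cells, without overlap. It was higher by 2.98 ± 0.19 log2 units on thinned cells (adjusted p = 2.57e-10, edgeR; first fit, adjusted p = 0.211), and its close copy LYZ1 may share reads. CTSC, the protease that activates the granule serine proteases, was at 496, 124 and 196 against 68.8, 50.8 and 58.7 CPM.

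CD63 and WFDC21 were called neutrophil-higher without the deepest cell and on thinned cells. CD63 is a tetraspanin of granule and late endosome membranes (chromosome 10, 128896231 to 128912822). It was at 41.5, 28.3 and 29.4 CPM against 621, 450.3 and 754 CPM and had more than 10 counts in 11 of 77 monocyte-gated and 38 of 40 neutrophil-gated cells. The log2 fold change was -4.15 ± 0.28 (adjusted p = 0.0763, edgeR), and -4.43 without the deepest cell (adjusted p = 0.0292, edgeR). WFDC21, a small secreted protein with a protease-inhibitor-like fold (chromosome 11, 83746940 to 83752646), was at 1.04, 1.01 and 1.12 CPM against 95, 232 and 238 CPM. It had more than 10 counts in 0 of 77 and 25 of 40 cells. Its log2 fold change was -7.25 ± 0.51 (adjusted p = 0.0763, edgeR), and -7.51 without the deepest cell (adjusted p = 0.0493, edgeR). The pseudogene CD63-PS, which may share reads with CD63, was at 2.61, 4.55 and 3.35 against 38.4, 45.9 and 73.8 CPM.

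Of the neutrophil markers outside the gate, WFDC21 among them, 21 of 35 were tested, with a median log2 of -1.06. On thinned cells 5 of 11 were neutrophil-higher (ANXA1, PGLYRP1, SERPINB1A, WFDC21 and GFI1) and 1, MGST1, monocyte-higher, beside 1.88% and 4.5%. GFI1, a transcriptional repressor of the neutrophil branch, was at 0.208, 1.26 and 12.3 CPM against 113, 49.8 and 128 CPM, and was found above 10 counts in 2 of 77 and 22 of 40 cells. PGLYRP1, a peptidoglycan-binding granule protein, was at 1.35, 13.9 and 2.23 against 79.7, 89.1 and 176 CPM. HP, haptoglobin, was shared, at 681, 525 and 312 against 734, 531 and 801 CPM with overlap. ANXA1 was at 607, 488 and 297 against 972, 347 and 597 CPM, and MGST1, a glutathione transferase, at 772, 835 and 349.9 against 269, 213 and 295 CPM. The collagenase MMP8, a granule gene of neutrophils, stood at 67.4, 11.9 and 9.49 CPM in monocyte-gated cells against 0.22, 0.491 and 0 CPM, at levels too low to test on thinned cells.

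Among secondary and tertiary granule genes, CAMP, NGP, LTF and S100A9 counts in neutrophil-gated cells came mostly from a few cells of m4528. CAMP, the cathelicidin precursor, was at 27.4, 0.253 and 0 CPM in monocyte-gated and 871, 14.5 and 0 CPM in neutrophil-gated cells. Of its 7920 counts in the neutrophil-gated cells of m4528, 96.8% came from 3 of 21 cells. The same number of cells held 99.4% of the NGP counts, 96.1% of S100A9, 91.0% of LCN2 and 100% of LTF in that mouse. NGP was at 561, 0.491 and 0 CPM in neutrophil-gated cells. LCN2, lipocalin-2, was at 44.7, 93 and 3.35 against 356, 0.491 and 173 CPM, highest of the neutrophil-gated sums in m4528 and near 0 in m605. It had more than 10 counts in 7, 0 and 5 neutrophil-gated cells. PGLYRP1, on the same list, was spread over all 3 mice, with more than 10 counts in 16, 6 and 8 neutrophil-gated cells. In contrast, the 3 highest cells held 29.1% of CD63 and 23.5% of MS4A3 counts in m4528. Of the 14 listed genes 8 were tested, with 0 called in either direction by edgeR in the first fit. At an unadjusted p under 0.05, 1 was monocyte-higher and 3 neutrophil-higher, beside 5.23% and 3.44% of all genes. On thinned cells 1 of 4, PGLYRP1, was neutrophil-higher (beside 1.88% of all genes). NGP above 10 counts was found in 5 monocyte-gated and 4 neutrophil-gated cells, all of m4528. CAMP was above 10 counts in 5 monocyte-gated cells, also all of m4528. Their log2(CPM + 1) values ran from 6.24 to 6.98. Neutrophil-gated cells of m4528 included values of 6.33, 6.83 and 7.13, beside a highest of 14.07. Low CAMP levels of this size thus occurred in both classes of that mouse. Plate 8 of that mouse held 5 monocyte-gated and 4 neutrophil-gated cells in all, the same numbers as for NGP. The part of the plate in these counts was not tested, so they need not be expression of the cells' own class.

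**Figure D4:**
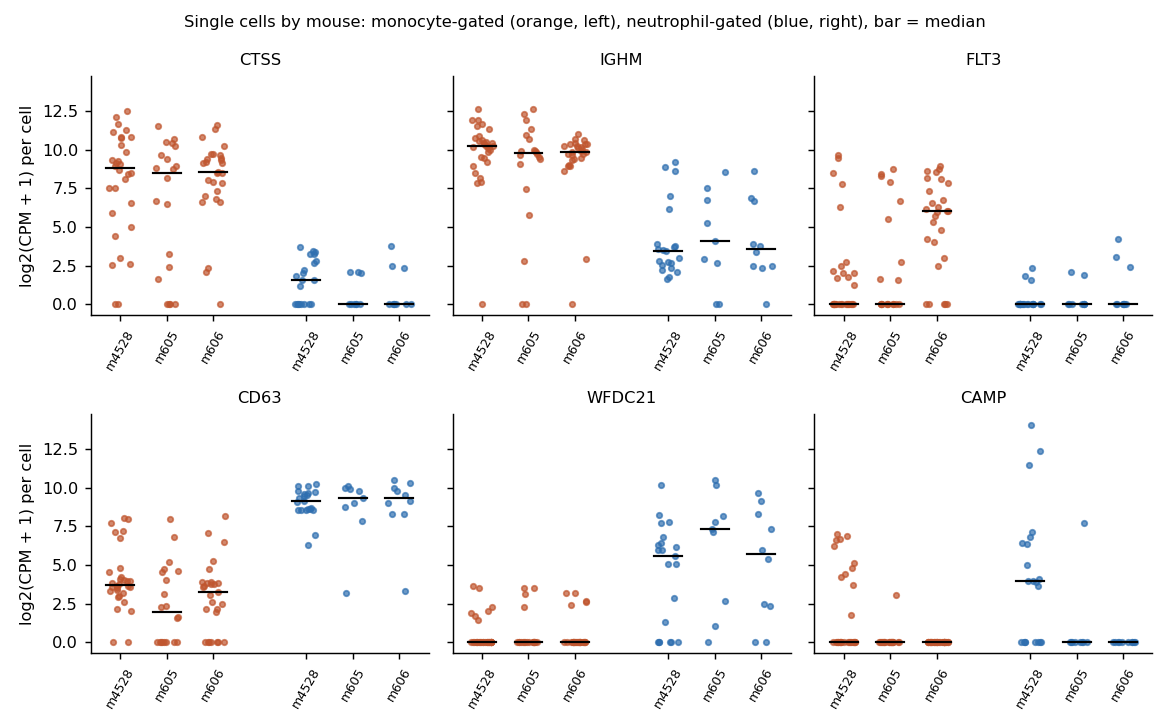
Log2(CPM + 1) of 6 genes in each gated cell, by mouse, with a bar at the median; monocyte-gated cells are orange and neutrophil-gated cells blue. CTSS and IGHM are spread over most monocyte-gated cells and CD63 over most neutrophil-gated cells, FLT3 occurs in 26 of 77 monocyte-gated cells above 10 counts, and the highest CAMP values lie in a few cells of m4528.

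Transcription factors were called in both directions. Of 56 listed, 45 were tested (31 with a positive fold change, median log2 0.62), and on thinned cells 7 of 31 were monocyte-higher and 2, GFI1 and MYB, neutrophil-higher (beside 4.5% and 1.88% of all genes in that fit). The general myeloid factor SPI1 (PU.1) was at 294, 387 and 383 against 346, 279.9 and 314 CPM, and CEBPA at 22.6, 27 and 20.8 against 31.2, 10.8 and 35.4 CPM, both overlapping and under no setting past the threshold. CEBPB, a further C/EBP factor, was at 327, 111 and 182 against 182, 64.8 and 191 CPM. For SPI1 and CEBPA the sign of the log2 fold change (0.22 ± 0.24 and 0.04 ± 0.77) flipped without the deepest cell, to -0.07 and -0.22. IRF5 was at 37.2, 28.3 and 50.8 against 0.33, 0.491 and 0.777 CPM without overlap. MYB, a factor of immature cells, was at 217, 148 and 264 against 484, 228 and 467 CPM. ID2 was at 243, 207 and 18.8 against 60.5, 13.3 and 26 CPM, with m606 apart from the other monocyte-gated sums.

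Genes of the immediate early and stress response leaned to the monocyte-gated cells. Of 24, 20 were tested, 18 with a positive fold change (median log2 1.10). On thinned cells 8 of 17 were monocyte-higher and none neutrophil-higher (beside 4.5% and 1.88% of all genes in that fit). FOS was at 794, 1972 and 2526 against 304, 705 and 1082 CPM. KLF6 was at 295, 989.6 and 1090.0 against 66.3, 364 and 390.2 CPM, and KLF2 at 73.6, 500.2 and 498 against 18.4, 76.1 and 161 CPM. In both classes m4528 was the lowest mouse for these 3 genes. Its cells come from the first of the deposited tables and those of m605 and m606 from the second, so mouse and table cannot be told apart. Within each mouse the monocyte-gated value was the higher one. The early granulocyte-monocyte cells described below stood at 1096, 3578 and 2857 CPM for FOS.

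On thinned cells 1.88% of all genes were neutrophil-higher and 4.5% monocyte-higher, against which the calls of secretory and metabolic genes are read. Of 34 endoplasmic reticulum genes the median log2 was -0.12 in the first fit. On thinned cells it was -0.22, and 4 of 32 (CALR, P4HB, SDF2L1 and SSR2) were neutrophil-higher. CALR, a chaperone of that compartment, was at 296, 546 and 600.5 against 523, 835 and 1105 CPM. HSPA5, the main chaperone there, was at 786, 1293 and 1462 against 951, 853 and 1367 CPM and not past the threshold. SSR2 was at 850.5, 557 and 817 against 1151, 1139 and 1473 CPM. Among glycolytic genes the median log2 was -0.19 over 20 in the first fit and -0.42 over 10 on thinned cells. Of the latter 10, 2 (HK3 and GPI1) were neutrophil-higher, GPI1 at 262, 228 and 269 against 540.0, 314 and 745 CPM. ALDOA, aldolase, was at 1430.0, 826 and 782 against 1419, 888 and 1099 CPM. Cholesterol synthesis genes had 0 of 5 and interferon response genes 1 of 4 called on thinned cells, the latter IFITM3 at 255, 626 and 566 against 124, 172 and 259 CPM.

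Calls of cell cycle genes on thinned cells are read against the same shares. Their counts at an unadjusted p in the first fit are read against 5.23% (monocyte-higher) and 3.44% (neutrophil-higher) of all genes. Of 42 S phase genes tested the median log2 was 0.07, with 0 called by edgeR in the first fit (0 and 1 at an unadjusted p under 0.05) and 0 of 34 on thinned cells. Of 53 G2M genes it was 0.26, with 5 and 0 at an unadjusted p under 0.05 and 1 of 39 monocyte-higher on thinned cells. TOP2A, a topoisomerase of dividing cells, was at 629, 276 and 422 against 371, 208 and 377 CPM. Ribosomal protein genes (83 tested) had a median log2 of 0.02 and respiration genes (75 tested) of 0.03, close to the 0.01 of all genes.

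**Figure D5:**
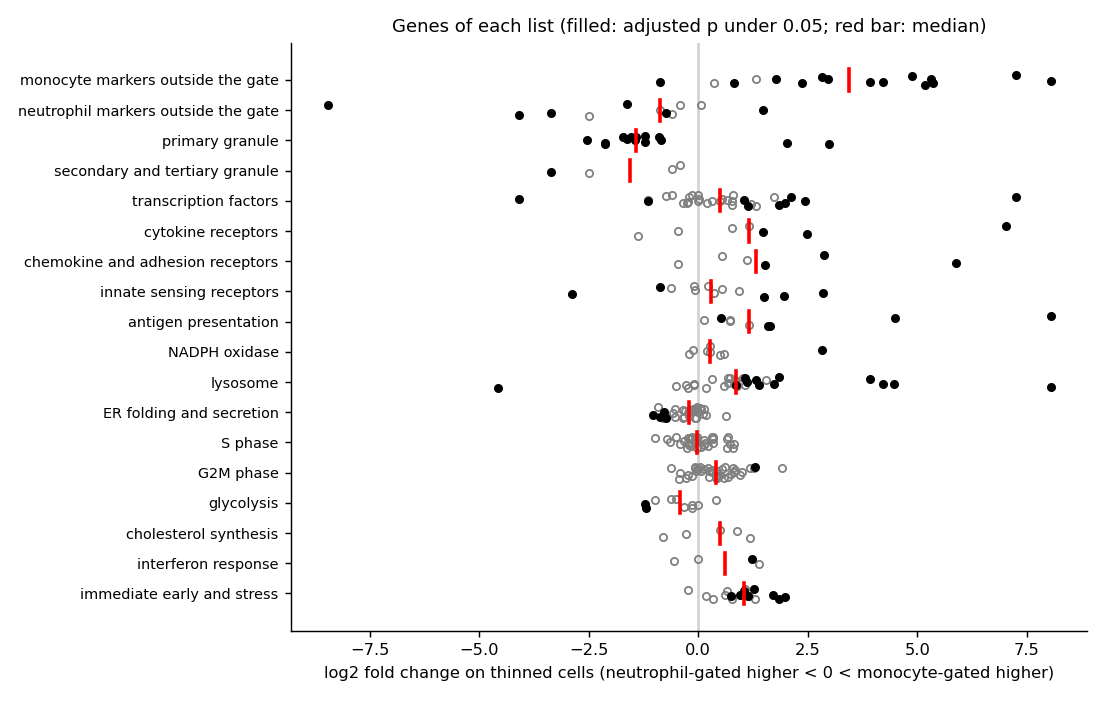
Log2 fold change of each list gene on cells thinned to 10000 counts (monocyte-gated higher to the right); filled points have an adjusted p under 0.05 and the red bar is the list median. Monocyte markers lie mostly to the right and primary granule genes mostly to the left. S phase genes lie around 0 (median -0.04), and endoplasmic reticulum genes have a median of -0.22.

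Markers of other cell types were counted in both classes. Dendritic markers summed to 524, 229.9 and 254 CPM in monocyte-gated and 48.1, 5.65 and 12.8 CPM in neutrophil-gated cells, over 13 genes of which 7 were tested. SIGLECH, a receptor of plasmacytoid dendritic cells, was at 71.5, 49.5 and 47.4 against 0.33, 0.737 and 0.389 CPM, from 6 of 77 monocyte-gated cells above 10 counts. FLT3, the receptor of the dendritic and lymphoid growth factor, was at 39.4, 29.1 and 94.3 against 0.33, 1.72 and 2.33 CPM, with 26 of 77 and 0 of 40 cells above 10 counts and 15 of those cells in m606. Dendritic markers exceeded the primary granule genes in 6 of 77 monocyte-gated cells and 1000 CPM in 11, and in 0 of 40 neutrophil-gated cells. Of the 6 members too low to test, CCR9 was at 0 in all monocyte-gated sums and XCR1 at 0, 0 and 0.744 CPM. CLEC9A was at 9.59, 0 and 18.04 CPM there, ZBTB46 at 36.8, 2.02 and 1.12 CPM, CD74 at 88.4, 12.4 and 0 CPM and BATF3 at 2.29, 7.83 and 0 CPM. The part of such cells in the monocyte-gated values was not tested.

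Basophil and mast cell markers summed to 279.6, 87.4 and 318 CPM in monocyte-gated and 854, 623 and 717 CPM in neutrophil-gated cells, with 6 of 10 genes tested. HDC, the enzyme that makes histamine, was at 60.3, 30.8 and 42 against 383, 186 and 309 CPM and spread over the class, with more than 10 counts in 33 of 40 neutrophil-gated and 12 of 77 monocyte-gated cells. CPA3, a mast cell carboxypeptidase, was at 16.9, 2.53 and 6.14 against 223, 268 and 77 CPM but above 10 counts in only 7 of 40 and 1 of 77 cells. Both were neutrophil-higher on thinned cells (log2 -3.19 and -4.29, adjusted p = 3.23e-05 and 1.66e-05, edgeR), with 0.127 and 0.208 in the first fit. On the plate of 2 mice CPA3 did not differ, at 2.72 CPM in monocyte-gated and 2.73 CPM in neutrophil-gated cells. The basophil protease MCPT8 was at 62.1, 49 and 122 against 115, 143 and 206 CPM. This list was above 1000 CPM in 7 of 40 neutrophil-gated and 2 of 77 monocyte-gated cells, and exceeded the primary granule genes in 0 of either. Lymphoid markers summed to 764, 1584 and 755 CPM in monocyte-gated and 3269, 2159 and 3817 CPM in neutrophil-gated cells. NKG7, also on the primary granule list, was the 1 of 2 members called neutrophil-higher on thinned cells and made up 3065, 2097 and 3648 CPM of the neutrophil-gated sums. Eosinophil markers summed to 60.5, 6.06 and 19.0 CPM against 142, 64.8 and 115 CPM. Megakaryocyte markers summed to at most 157 CPM, stem cell markers to at most 195 CPM and stromal or endothelial markers to at most 10.4 CPM in any sum. Macrophage markers summed to at most 66.5 CPM, and C1QA, a macrophage gene, was at 0 in all 6. The part of these cells was not tested.

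Within each class, cells differed by how many gate genes they carried. The 13 neutrophil-gated cells with 2 gate genes had a median of 501 CPM of CD34, the surface marker of immature progenitors, against 4.62 CPM in 7 cells with 3 and 5.65 CPM in 20 cells with 4. Median WFDC21 was 0, 40.6 and 126 CPM in that order, CD63 374, 561 and 872 CPM and CLEC12A 309, 1565 and 2075 CPM. Median ELANE was 3737, 5218 and 5940 CPM, and median depth 239377, 295333 and 394676 counts. CD34 was thus at its highest, and WFDC21, CD63, CLEC12A and ELANE at their lowest, in the cells that had just passed the gate. Among monocyte-gated cells, the 23 with 3 or 4 gate genes had median CTSS of 88.7 CPM and LGALS3 of 116 CPM, against 547 and 759 CPM in the 38 cells with 6 or 7. Median ELANE was 2129 and 507 CPM in these cells, but 158 CPM in the 16 cells with 5 genes. The 16 cells with 5 genes had a median FLT3 of 51.4 CPM, against 1.97 CPM in cells with fewer and 2.60 CPM in cells with more. These medians follow the gate genes and depth, and carry no test.

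Cells with more than 10 counts of both CD34 and MPO that met neither gate (at most 2 monocyte and 1 neutrophil gate genes) served as a description of earlier granulocyte-monocyte cells, 132 in the 3 mice. They held CTSS at 17.2, 17.9 and 10.1 CPM, MS4A3 at 270.5, 157 and 306 CPM and ELANE at 233, 103 and 179 CPM, below the neutrophil-gated cells for MS4A3 and ELANE. LGALS3 was at 20.3, 10.1 and 1.8 CPM and LY6C2 at 84.6, 82.3 and 87.7 CPM, far under both classes for LY6C2. SRGN was at 2665, 3445 and 3730.3 CPM and CD63 at 251, 126 and 197 CPM, between the classes in each mouse. KIT, the stem cell factor receptor, was at 156, 121 and 101 CPM, against 44.3, 17.4 and 35.2 and 31.5, 49.8 and 50.5 CPM. Their CD34 was 675, 522 and 474 CPM, against 402, 271 and 438 in monocyte-gated and 176, 68.7 and 129.8 in neutrophil-gated cells. Of the 187 genes higher in monocyte-gated cells on thinned counts, the early cells' mean lay below both classes for 60, between them for 100 and above both for 27. Of the 78 neutrophil-higher genes it lay below both for 42, between for 26 and above both for 10. These positions carry no test, and the gate on CD34 and MPO also admits other cells: PF4, a platelet gene, averaged 1742 CPM there.

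The plate with cells of m605 and m606 together held 13 monocyte-gated and 7 neutrophil-gated cells, which entered a fit only as a 4th block in an alternative setting. CTSS was at 472 and 2.19 CPM there, IGHM at 923 and 59.6 CPM, CD63 at 16.3 and 512 CPM and MS4A3 at 999 and 3688 CPM, in the order monocyte-gated, neutrophil-gated. Of the 187 genes called monocyte-higher on thinned cells, 177 had the higher CPM in monocyte-gated cells of this plate, and 77 of the 78 neutrophil-higher genes had it in neutrophil-gated cells. Any difference counted, however small, such as CPA3 at 2.72 and 2.73 CPM and SERPINE2 at 133.8 and 134.4 CPM. Over all genes of the thinned fit the plate matched the fitted direction for 59.2% of those fitted higher in monocyte-gated cells and 62.6% of the rest. The cells of this plate are other cells, but of the same mice. At day 10 the gates held 3 and 1 cells, and at day 3 1 and 0. The 3 monocyte-gated day 10 cells together had 1648 CPM of CTSS, 2659.8 of LGALS3 and 0.6 of MPO, the last far from the 5328, 5249 and 6476 CPM of day 17. The same 3 cells held dendritic markers, with CLEC9A at 160.3, BATF3 at 79.3 and FLT3 at 154 CPM, and the part of these in the low MPO was not tested. The single neutrophil-gated day 10 cell had 1114 CPM of CD63 and 2933 of MS4A3.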

How the data were processed

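Single Lin- Tom+ mouse cells were sorted into 96-well plates, and the deposited tables hold whole-number read counts per gene and cell, not normalized. The 3′ end protocol is given per the labels. The submitters' processing notes name GRCm38; for the aligner, counter and strand setting these sources give nothing, and the labels mention no molecular identifiers. The authors' tables list 22971 and 34486 genes; the 22842 shared ones were used. Of 9357 barcodes, 1010 had at least 500 genes and 10000 counts. All 96 well barcodes recur across plates and none recurs on a plate. No doublet caller was run, and no plate pair differed by less than sampling noise (lowest chi-square per gene 28.8 of 36 pairs). That check could flag only copied plates, not reads carried between wells or plates.

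Gated cells were summed per mouse and tested with edgeR 4.0.16 (TMM, filterByExpr, quasi-likelihood test, mouse as block) in R 4.3.3, with Benjamini-Hochberg adjustment outside the 11 gate genes. The mouse pairs the sums: same-mouse deviations correlated at 0.378, 0.219 and 0.106. DESeq2 1.42.0, other gates, thinning to 10000 counts and left-out mice were alternatives. Simulated counts over 10766 genes gave 2, 12, 40 and 48% recovery at 2-, 4-, 8- and 16-fold, with 2 false calls. The text names the gate genes, up to 12 called genes per direction at 50 CPM or more, called list members and up to 4 list members by level; other names were chosen after their values were seen. Members and lists were chosen with earlier results of these data known. Leaving out the deepest cell or cells and the gate at 50 CPM were added after seeing the data. Near-identical copies (LY6C2 and LY6C1, LYZ2 and LYZ1, H2 and ribosomal genes) can share reads. Some list members are not reported here.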

Additional observations from a re-analysis of the deposited data

Results flagged for a closer look

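Among 9 day 17 plates, 1 plate of m606 held the lowest share of neutrophil-gated cells, 2.13% (2 of 94 cells, exact 95% binomial interval 0.259 to 7.48%), far below the next plate for the spread of the others (gap over range 0.616, critical value 0.493). The other m606 plate held 8.42% (8 of 95). Shares and median depths of both classes were checked this way, and chance alone marks about 1 in 20 groups.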

How the results depend on the processing

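The counts of called genes moved with nearly every setting. Higher in monocyte-gated and neutrophil-gated cells, they were 2 and 0 in the main setting, 1 and 0 with DESeq2's size factors, 366 and 215 with DESeq2's Wald test and 20 and 2 with no filter. Without the replicate block they were 34 and 6. Gates at more than 5 and 20 counts gave 2 and 0, and 5 and 4. Requiring 0 genes of the other list gave 6 and 0, thinning 187 and 78, the early cells as a further class 18 and 3, and the plate of 2 mice as a 4th block 36 and 8; that block repeats 2 of the mice, so its p-values are too small. Added settings gave 11 and 4 without the deepest gated cell, 4 and 4 without the deepest cell of each class and mouse, and 9 and 6 with the 50 CPM gate. Leaving out any mouse gave 0 to 0. The causes were not tested.

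The monocyte share was 6.78% with 0 genes of the other list and 8.53% with 500 genes alone, and the neutrophil share 2.503% and 4.21%; without single mice they ranged from 12.2 to 14.1% and from 5.79 to 6.79%.

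Of 1380 single-gene values for 87 genes, 1113 kept direction and side of the threshold, 222 newly passed it, 10 lost it and 35, in 12 genes, changed sign. Over left-out mice the log2 values that changed sign ranged for LCN2 from -4.16 to 1.59, HP from -0.71 to 0.047, ANXA1 from -0.82 to 0.013, CAR1 from -1.35 to 1.16, CEBPA from -0.59 to 0.53, RAC2 from -0.069 to 0.59, HSPA5 from -0.067 to 0.42, ALDOA from -0.22 to 0.063 and KIT from -0.94 to 0.008. Without the replicate block CEBPA was -0.041. With the gate at 5 counts CAR1 was 0.074, CEBPA was -0.13, KIT was 0.0097. With the gate at 20 counts CAR1 was 0.66, SPI1 was -0.079, CEBPA was -0.13, NCF4 was -0.22, HSPA5 was -0.0034. With 0 genes of the other list CEBPB was -0.38, HSPA5 was -0.31. On thinned cells HSPA5 was -0.031. With the 4th block CEBPA was -0.26. Without the deepest gated cell CAR1 was 0.70, SPI1 was -0.074, CEBPA was -0.22, NCF4 was -0.16. Without the deepest cells SPI1 was -0.074, CEBPA was -0.39, NCF4 was -0.035, HSPA5 was -0.18. With the 50 CPM gate CAR1 was 0.64, SPI1 was -0.071, CEBPA was -0.18, NCF4 was -0.22.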
